A study of Rattus norvegicus with 18 samples.

Results

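Potassium channel genes were examined in mixed cultures of neurons and glia from rat cortex. The members were all rows of the count tables whose names begin with Kcn followed by a lower-case letter. This rule, which uses no measured value, gave 92 of 31463 rows in 21 subfamilies, a subfamily being the letters of the symbol up to its first digit. The 18 libraries formed 6 groups of 3. Control cultures received no agent named in the labels. In the Glutamate group, excitotoxicity, the damage of neurons by excess glutamate, was modelled with 100 µM glutamate. The positive control was Memantine at 100 µM, which blocks NMDA receptors for glutamate. Glutamate is missing from the label of this group, although the series design describes the group as part of that model. Glutamate_vesicles, Glutamate_secret and Glutamate_BPC received material secreted by glial progenitor cells on the day before glutamate. The first of these was the vesicle preparation. Of the other two, one received the total secretome and one a protein fraction, and the labels do not say which. All cultures came from newborn rats, were used on day 10 in vitro and gave total RNA 4 h after the model was induced. They hold neurons and glia together, and cytosine arabinoside was used in their preparation to limit the division of glia.

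Potassium channels let potassium leave or enter the cell along its gradient and thereby set the resting potential, end the action potential and limit firing. In neurons, voltage-gated channels shape each spike, G-protein-coupled and classical inward rectifiers hold the cell near rest, and 2-pore-domain channels carry the leak. In astrocytes, inward rectifiers of the Kir4.1 type take up potassium that active neurons release.

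Of the 92 members, 65 passed the filter on low counts, among 14398 genes that did so. A count in every library was found for 52 members. Over all libraries the members held 114048 counts. The 27 members that were not tested had at most 130 counts over the 18 libraries. Kcnu1, the sperm-specific relative of the large-conductance channel, and Kcnmb1, the auxiliary subunit of smooth muscle, had no count in any library. Also below the filter were Kcna5, Kcna7 and Kcna10, Kcnq1, Kcnh5, Kcnh6, Kcnh7 and Kcnh8, Kcng2, Kcng3 and Kcng4, Kcnv2, Kcnj1, Kcnj8, Kcnj13 and Kcnj15, Kcnk6, Kcnk7, Kcnk9, Kcnk16 and Kcnk18, Kcnab3, Kcne1 and Kcne3, and Kcnmb3. Kcnj10, which encodes Kir4.1, had the most counts of any member, 13.9% of the total. Counts are not per length, so that this is no order of abundance between genes.

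Libraries held 8409574 to 17206354 counts. Control 1 stood apart, with 43.0% of its counts in ribosomal RNA, against 3.04% to 26.6% in the other libraries. Levels are given as CPM, counts scaled to one common library size after adjustment by the trimmed mean of M values. Differences are log2 fold changes, each with its standard error (SE), from a quasi-likelihood fit in edgeR over all genes that passed the filter. A member was called at a Benjamini-Hochberg adjusted p below 0.05. The methods state in general that experiments were repeated on cultures of unrelated cells, and no source ties the libraries to such cultures one by one, so that p-values measure the spread between these samples.

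The summed level of all 92 members was 806, 677 and 571 CPM in Control 1, 2 and 3. It was 377, 468 and 332 CPM in Glutamate. Every Glutamate library was thus below every Control library at this scaling. The factors by which library sizes were multiplied ran from 0.417 (Control 1) to 1.58 (Memantine 2), with 1.51 for Glutamate 2. The order of Control 1 and Glutamate 2 depends on these factors. In Memantine the sum was 865, 901 and 291 CPM, so that Memantine 1 and 2 were above every Control library and Memantine 3 was below every Glutamate library. The 3 preparations gave 339, 419 and 304 CPM in Glutamate_vesicles, 344, 399 and 325 CPM in Glutamate_secret, and 356, 292 and 294 CPM in Glutamate_BPC. All 9 of these libraries were below the Control range. Neuronal marker genes were also below the Control range in every library of Glutamate and of the preparations. Within a group the order of the libraries could differ, since Glutamate 2 had the highest Kcn sum and the lowest neuronal sum of its group. The summed level of 10 neuronal markers was 2425 to 3358 CPM in Control, 672 to 1501 CPM in Glutamate and 590 to 1373 CPM over the preparations. In Memantine it was 4458, 2486 and 814 CPM. The summed level of 8 astrocyte markers was 2954 to 6399 CPM in Control and 5676 to 11335 CPM in Glutamate. These astrocyte ranges overlap. The summed level of 9 markers of the oligodendrocyte lineage was 554 to 940 CPM in Control and 1241 to 1307 CPM in Glutamate, without overlap. Markers of fibroblasts and mural cells summed to 3.71 to 19.5 CPM and those of endothelium to 0.315 to 4.21 CPM over the 18 libraries. In bulk RNA, fewer neurons and less channel RNA per neuron cannot be told apart.

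**Figure D1:**
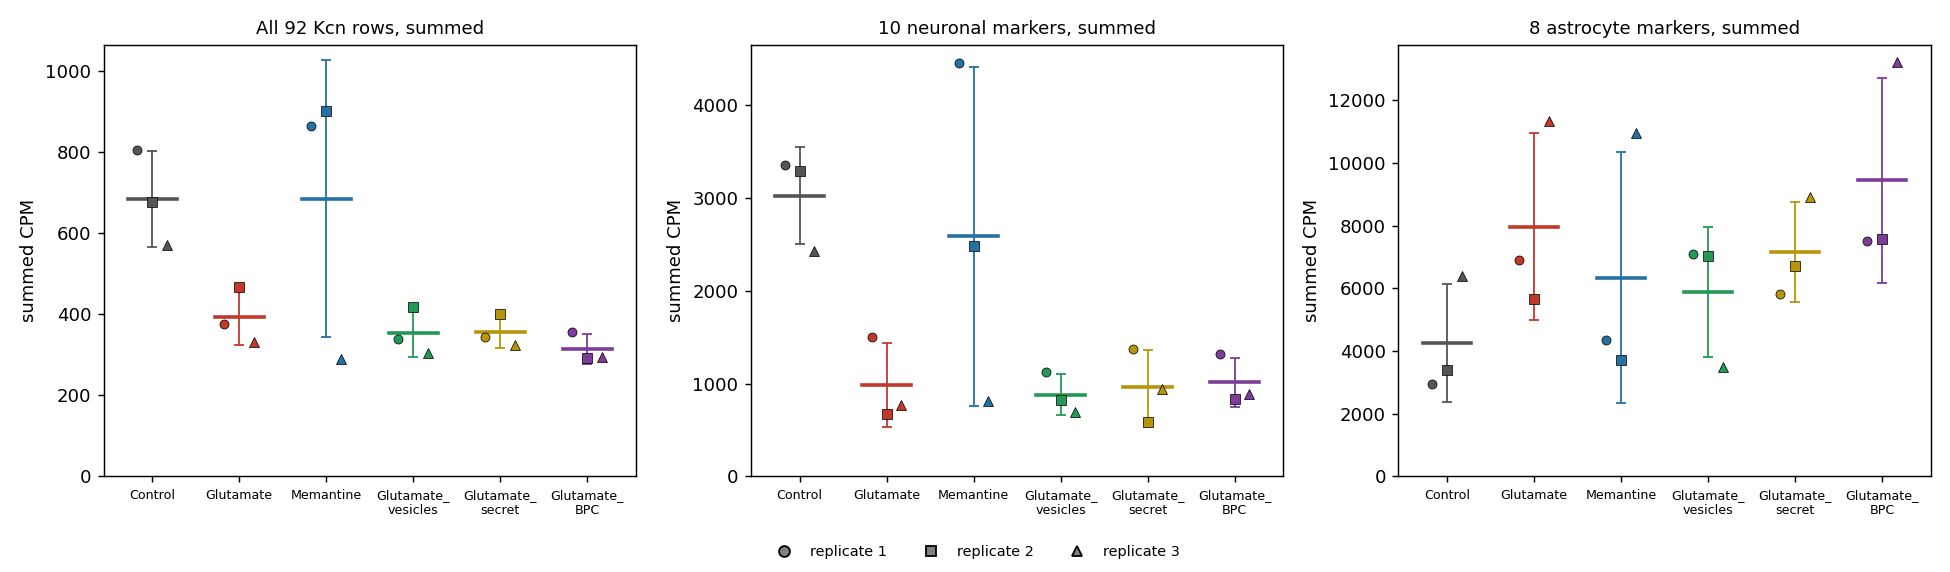
Summed CPM (vertical axes, from 0) of the 92 Kcn rows, of 10 neuronal markers and of 8 astrocyte markers in each of the 18 libraries, by group (horizontal axes). Points are libraries, with circle, square and triangle for replicates 1, 2 and 3, and bars are the mean ± SD of 3. The Kcn sum of Memantine 3 (291 CPM) is below the Glutamate libraries (332 to 468 CPM), and its neuronal marker sum (814 CPM) is within their range.

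The first comparison asked how the glutamate model itself affected these genes. Voltage-gated channels, their silent partners and several inward rectifiers had lower levels in Glutamate than in Control. Of the 65 tested members, 54 were lower and 11 higher, and the median log2 fold change was -1.02, beside 0.08 over all genes tested. The quasi-likelihood test called 0 members (smallest adjusted p 0.261), and it called 0% of all genes. At an unadjusted p below 0.05, 20 members were lower, where 5.97% of all genes were, and 1 was higher, where 2.13% were. The CPM ranges of the 3 and 3 libraries did not overlap for 27 members that were lower, a pattern seen in 7.76% of all genes, and for 1 that was higher (4.48%). With the replicate number as a block, the quasi-likelihood test called 3 members (Kcnc2, Kcnh3 and Kcnip1), all lower, and 1.15% of all genes. DESeq2, which gave 72 members an adjusted p, called 7, all of them lower, where it called 1.22% of all genes lower. These were Kcnc2, Kcnh3, Kcnip1, Kcnj4, Kcnj6, Kcnk13 and Kcnv1. All 10 neuronal markers were lower as well (median log2 fold change -1.52, 5 with an unadjusted p below 0.05). The 8 astrocyte markers were higher without such a p (median 0.65), and 8 of the 9 oligodendrocyte lineage markers were higher, 1 with such a p (median 0.60). The part of these markers in the result was not tested.

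**Figure D2:**
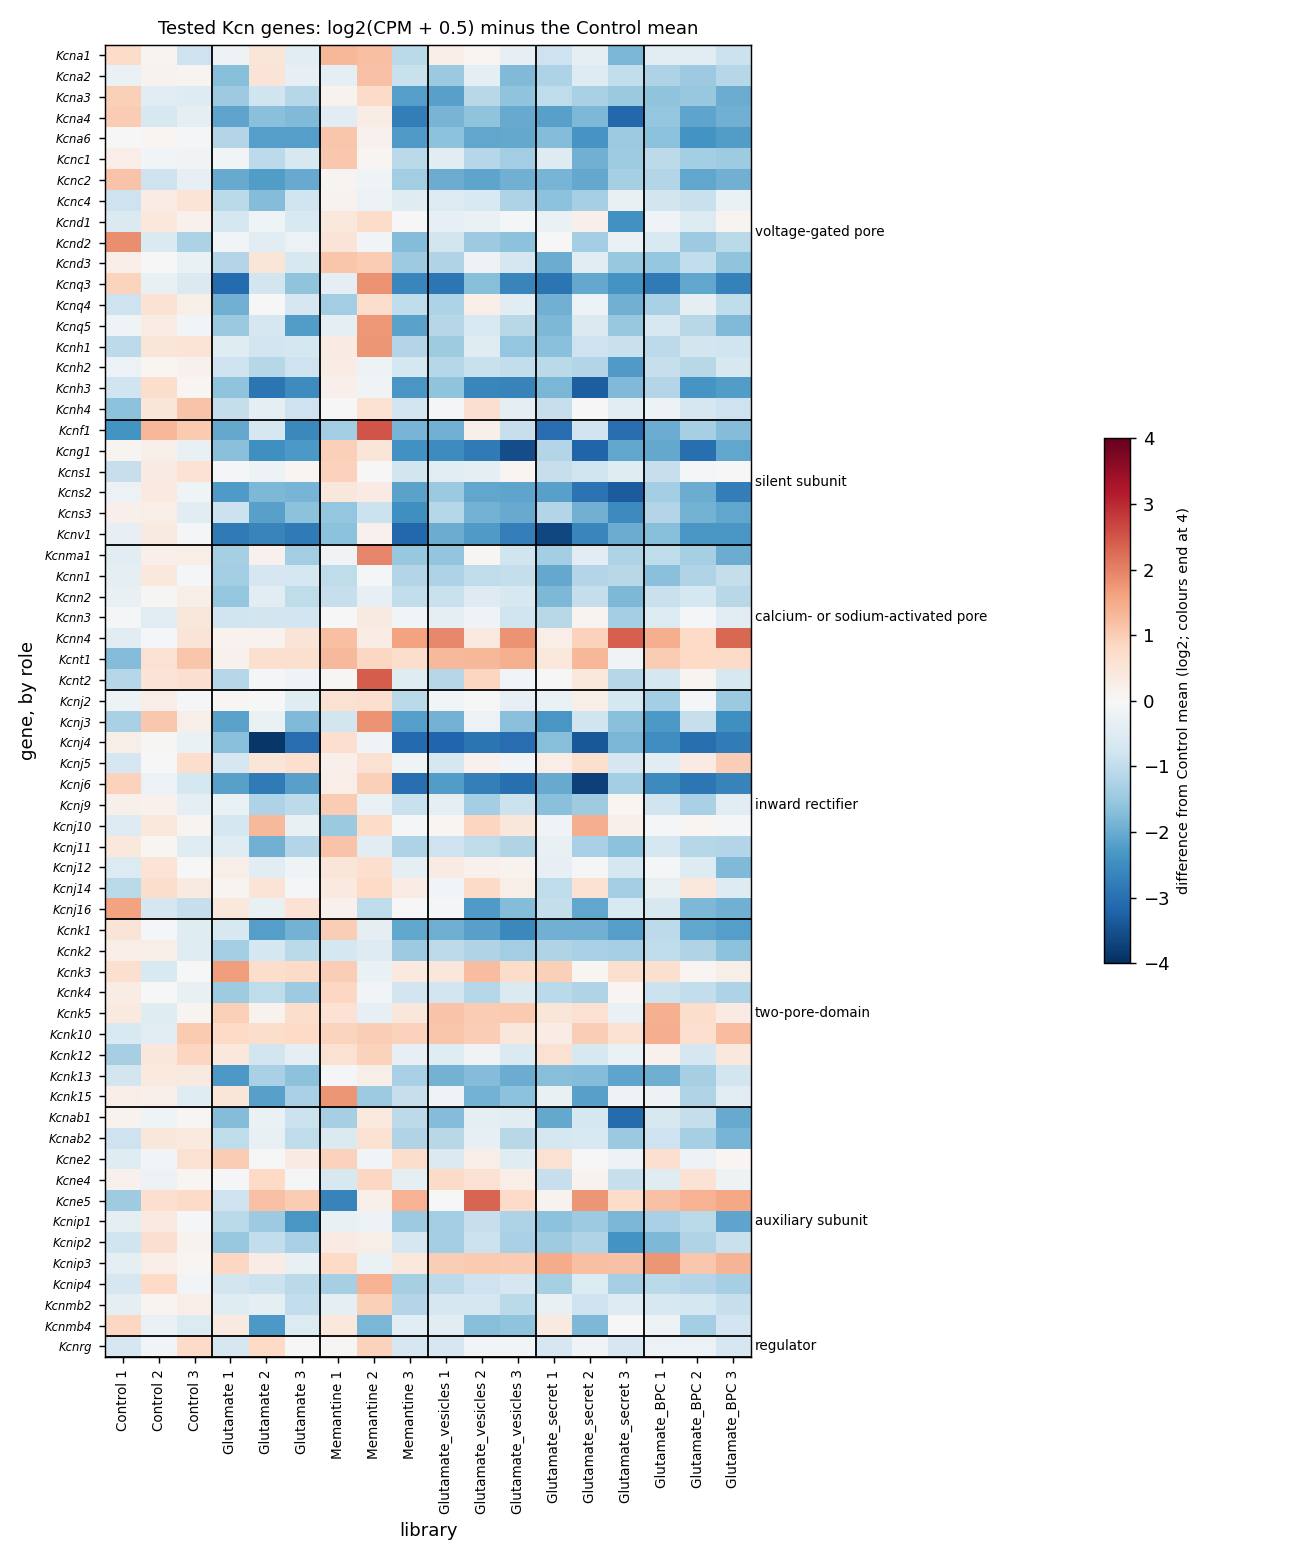
Level of 63 of the 65 tested Kcn genes (rows, by role) in the 18 libraries (columns) as log2(CPM + 0.5) minus the mean of the 3 Control libraries. Red is higher and blue is lower, and colours end at a difference of 4. Kcna6, Kcng1, Kcns2, Kcnv1, Kcnj4 and Kcnj6 are blue in Glutamate, in Memantine 3 and in the 3 preparations, while Kcnip3 and Kcnn4 are mostly red in the preparations. Kcnn4 is red in the Memantine libraries as well.

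Voltage-gated pores, the subunits that open on depolarisation and repolarise the membrane, were represented by 20 tested members of 28. All 20 were lower in Glutamate (median log2 fold change -1.22), 7 of them with an unadjusted p below 0.05. Kcnc2 encodes Kv3.2, a fast channel known from interneurons that fire at high rates. Its level was 7.42, 1.52 and 2.32 CPM in Control and 0.387, 0.254 and 0.389 CPM in Glutamate. The groups did not overlap, and the Glutamate libraries held only 3, 4 and 4 counts of it. The difference was -3.39 on the log2 scale (SE 0.79, edgeR adjusted p = 0.261), a 10.5-fold lower level and the smallest unadjusted p of any member (0.000572). Control 1 alone lay above 2.32 CPM, so that the size of this fold rests in part on that library. Kcna6, which encodes the delayed rectifier Kv1.6, had 30.6, 32.8 and 30.4 CPM in Control and 13.6, 6.35 and 6.32 CPM in Glutamate. Its Control libraries lay close together, and the difference was -1.84 on the log2 scale (SE 0.61, edgeR adjusted p = 0.363). Kcnh3, an Elk-type channel of forebrain neurons, had 14.0, 40.4 and 26.1 CPM in Control and 7.75, 2.79 and 3.89 CPM in Glutamate (log2 fold change -2.49, SE 0.71). Kcnh3 overlaps Mcrs1 in the RefSeq annotation and the counting is not stated to use strand, so that reads may be shared. Kcna3, Kcna4, Kcnc4 and Kcnh2 were the remaining pores with an unadjusted p below 0.05.

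The other pores described here had unadjusted p-values above 0.05. Kcnq3, a subunit of the M-current that limits repetitive firing, had 13.1, 5.55 and 4.47 CPM in Control and 0.387, 4.00 and 1.95 CPM in Glutamate (log2 fold change -1.82, SE 0.99). For the axonal channel gene Kcna2 the values were 16.6, 21.9 and 21.6 CPM against 5.81, 28.8 and 15.7 CPM, and the groups overlapped. Kcnd3, the transient A-type channel Kv4.3, overlapped too, with 41.5 to 60.0 CPM in Control and 22.2 to 70.2 CPM in Glutamate.

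Silent subunits form no channel alone and modify the channels of other pores that they join. Of 10 members 6 were tested, and all 6 were lower in Glutamate (median log2 fold change -2.27), 4 of them with an unadjusted p below 0.05. Kcng1 (Kv6.1) had 19.1, 20.3 and 14.2 CPM in Control and 5.17, 2.79 and 3.21 CPM in Glutamate. The lowest Control library was thus well above the highest Glutamate library, and the difference was -2.27 on the log2 scale (SE 0.74, edgeR adjusted p = 0.363). Kcns2 (Kv9.2) had 6.85, 10.7 and 7.16 CPM in Control and 1.29, 1.97 and 1.85 CPM in Glutamate (-2.27, SE 0.70). For Kcnv1 (Kv8.1) the levels were 4.57, 7.66 and 5.55 CPM against 0.387, 0.508 and 0.389 CPM. This gene had the most negative log2 fold change of the tested members, -3.76 (SE 1.04, edgeR adjusted p = 0.282). The Glutamate libraries held only 3, 8 and 4 counts of it. Kcns3 was the other silent subunit with such a p (-1.92, SE 0.82). Kcnf1 had 0.286 CPM in Control 1 and 10.1 and 8.19 CPM in Control 2 and 3, a spread as wide as its difference from Glutamate.

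Inward rectifiers pass potassium best near and below rest. Of 15 members 11 were tested, 9 lower and 2 higher in Glutamate, and their median log2 fold change was -0.23. Kcnj4 encodes Kir2.3, a strong rectifier of forebrain neurons. It had 20.6, 17.96 and 14.3 CPM in Control and 5.17, 0.698 and 1.65 CPM in Glutamate, which differ by -2.83 on the log2 scale (SE 0.85, edgeR adjusted p = 0.313). Kcnj6 encodes GIRK2, which G-protein-coupled receptors open. Its level was 54.2, 24.1 and 17.3 CPM in Control and 5.94, 3.56 and 5.84 CPM in Glutamate, which differ by -2.64 on the log2 scale (SE 0.81, edgeR adjusted p = 0.327). Neither gene overlapped between the groups. Kcnj10 of astrocytes had 31.7, 61.5 and 49.8 CPM in Control and 28.03, 114 and 37.6 CPM in Glutamate. Its Glutamate libraries lay on both sides of the Control range, and the log2 fold change was 0.33 (SE 0.59). Over all 6 groups the F test for Kcnj10 gave an unadjusted p of 0.760.

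Calcium- and sodium-activated channels, grouped with their relative Kcnu1, had 7 tested members of 8, of which 5 were lower (median log2 fold change -1.02). Kcnn2, the small-conductance channel SK2 of the afterhyperpolarisation, had 7.14, 9.23 and 10.4 CPM in Control and 2.71, 6.41 and 4.09 CPM in Glutamate (-1.02, SE 0.42, unadjusted p = 0.0274). Kcnma1, the pore of the large-conductance BK channel, overlapped between the groups, with 2.57 to 4.36 CPM in Control and 1.07 to 4.19 CPM in Glutamate. Kcnt1, a sodium-activated channel, had 0.857, 6.38 and 9.26 CPM in Control and 4.52, 6.48 and 6.52 CPM in Glutamate, with a log2 fold change of 0.05 (SE 0.57).

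Members of the 2-pore-domain family did not share 1 direction. Of the 9 tested members of 14, 6 were lower and 3 higher, 4 and 1 of them with an unadjusted p below 0.05. Kcnk3, the acid-sensitive leak channel TASK-1, was the 1 member of all 65 that was higher with such a p. It had 8.28, 3.19 and 5.12 CPM in Control and 17.7, 8.76 and 9.14 CPM in Glutamate (log2 fold change 1.12, SE 0.48, edgeR adjusted p = 0.538). Without Control 2 or without Glutamate 1, 0 members were higher with such a p. Kcnk13, which encodes THIK-1, had 1.71, 4.32 and 4.25 CPM in Control and 0.258, 1.02 and 0.681 CPM in Glutamate (-2.37, SE 0.69). THIK-1 is known from microglia, and the 7 microglial markers of the fixed list were all higher in Glutamate (median log2 fold change 1.01, 0 with an unadjusted p below 0.05). Kcnk1, Kcnk2 and Kcnk4, the leak channels TWIK-1, TREK-1 and TRAAK, had log2 fold changes of -1.67 (SE 0.75), -1.13 (SE 0.40) and -1.83 (SE 0.65). Kcnk10, the family member with the most counts, was 3.14, 3.63 and 11.1 CPM in Control and 9.30, 8.57 and 9.14 CPM in Glutamate, which overlap.

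Auxiliary subunits had 11 tested members of 16, 7 lower and 4 higher (median log2 fold change -0.90). Kcnip1 and Kcnip2 encode calcium-binding KChIP proteins that bring Kv4 channels to the surface. Kcnip1 had 15.7, 27.1 and 19.8 CPM in Control and 9.43, 7.17 and 3.70 CPM in Glutamate. It differed by -1.63 on the log2 scale (SE 0.45, edgeR adjusted p = 0.282), and the groups did not overlap. Kcnip2 gave -1.48 (SE 0.49). The Kv4 pores Kcnd1, Kcnd2 and Kcnd3 had unadjusted p-values above 0.05. Kcnmb4, the neuronal beta subunit of the BK channel, had 60.8, 27.8 and 22.8 CPM in Control and 43.3, 6.48 and 23.3 CPM in Glutamate, which overlap. Kcnab1 differed by -0.90 (SE 0.75) and Kcne5 by 0.39 (SE 0.92). Kcnrg, a regulator of Kv assembly, was near the floor, with at most 1.00 CPM in any library.

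**Figure D3:**
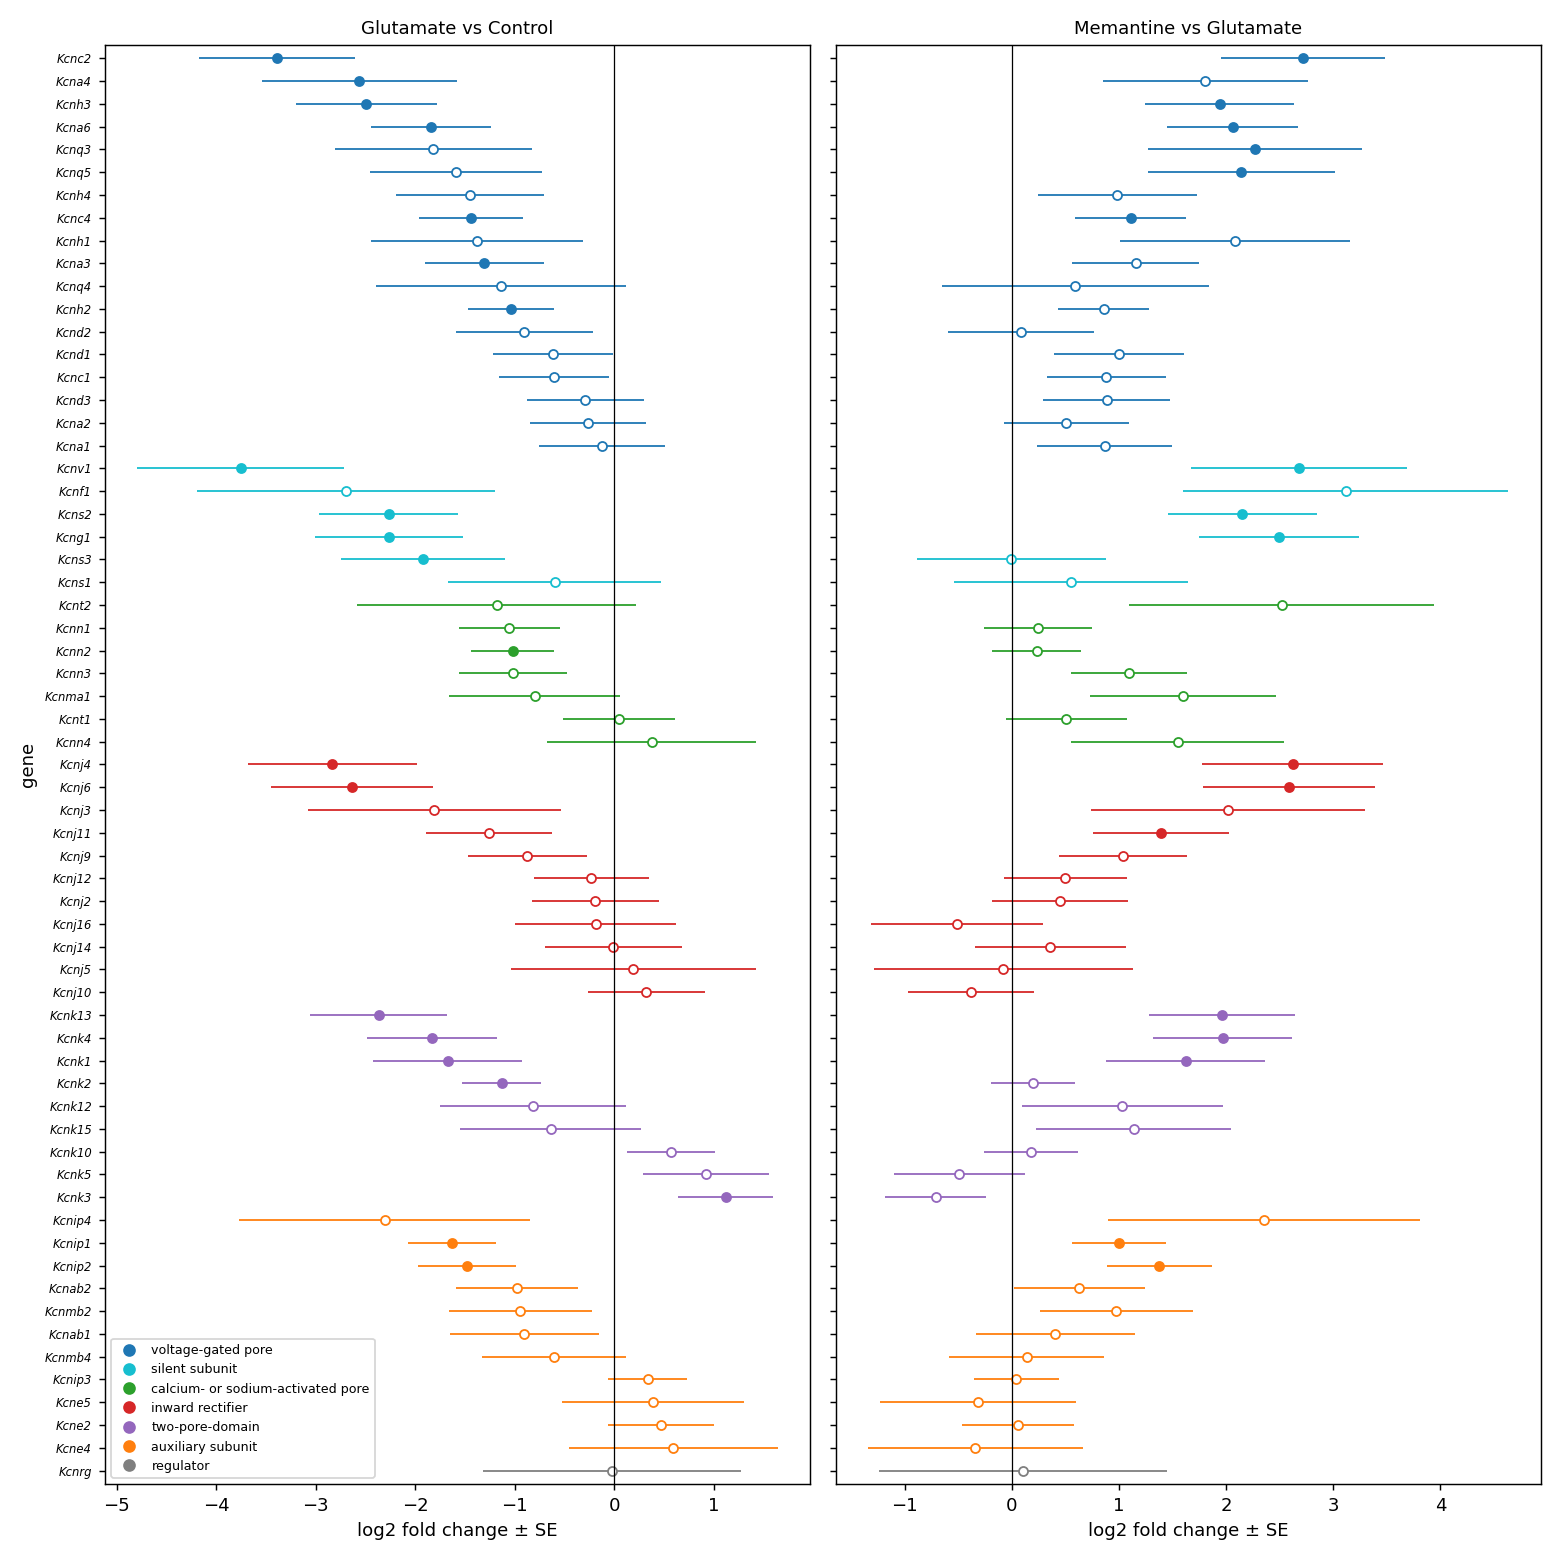
Log2 fold change ± SE (horizontal axes) of 63 of the 65 tested Kcn genes (vertical axis, coloured by role) for Glutamate against Control and for Memantine against Glutamate. Filled points have an unadjusted p below 0.05, and no point passes the adjusted threshold. All 18 voltage-gated pores drawn lie left of zero in the first panel and right of it in the second. The panels share the Glutamate libraries.

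By subfamily, the summed CPM of 11 subfamilies did not overlap between the groups and was lower in each Glutamate library than in every Control library. For Kcna the sum was 76.0 to 114 CPM in Control and 33.7 to 57.9 CPM in Glutamate. For Kcnc it was 31.4 to 41.9 CPM against 15.6 to 22.3 CPM, for Kcnh 21.4 to 53.9 CPM against 8.82 to 14.5 CPM, and for Kcnip 24.8 to 49.9 CPM against 11.1 to 21.2 CPM. Among the others of the 11 were Kcnq, Kcng, Kcns, Kcnv, Kcnn and Kcnab. The sums of 9 subfamilies overlapped, among them Kcnd, where Control 1 alone reached 241 CPM, and Kcnj, where Kcnj10 held 60.0% of the counts. For Memantine against Glutamate, the sum of 1 subfamily (Kcnt) was higher without overlap and 0 were lower. For Memantine against Control, 0 were higher and 0 lower. Against Control, 12 sums were lower and 1 higher in Glutamate_vesicles, 13 and 0 in Glutamate_secret, and 13 and 1 in Glutamate_BPC. These sums are descriptions with no test, and a share over all genes was not worked out for them.

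The stretches before the transcription start are shown for 3 members with lower levels in Glutamate than in Control, none of which was called by the main test. Kcnc2 is shown as the member with the smallest p, and Kcnj4 and Kcnj6 as the inward rectifiers with an unadjusted p below 0.05. Each is the 250 bases upstream of the RefSeq start on assembly GRCr8, written 5′ to 3′, and capitals mark a motif match.
Kcnc2 (chr7:49587364-49587613, plus strand): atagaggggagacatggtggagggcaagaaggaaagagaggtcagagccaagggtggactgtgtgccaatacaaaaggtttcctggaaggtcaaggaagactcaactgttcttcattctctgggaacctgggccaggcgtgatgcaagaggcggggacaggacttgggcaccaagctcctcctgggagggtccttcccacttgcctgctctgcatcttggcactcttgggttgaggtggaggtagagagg
Kcnj4 (chr7:112954548-112954797, minus strand): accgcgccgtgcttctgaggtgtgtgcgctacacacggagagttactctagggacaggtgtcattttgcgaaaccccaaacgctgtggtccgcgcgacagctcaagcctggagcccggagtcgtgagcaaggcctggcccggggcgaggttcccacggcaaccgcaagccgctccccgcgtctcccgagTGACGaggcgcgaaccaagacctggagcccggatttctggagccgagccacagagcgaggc
Kcnj6 (chr11:47778349-47778598, minus strand): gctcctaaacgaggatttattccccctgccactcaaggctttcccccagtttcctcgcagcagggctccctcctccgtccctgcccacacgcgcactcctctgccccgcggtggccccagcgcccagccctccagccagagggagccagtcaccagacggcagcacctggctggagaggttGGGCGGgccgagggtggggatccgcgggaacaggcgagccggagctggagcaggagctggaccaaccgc
The capitals in Kcnj4 are the short form of the cyclic AMP response element (TGACG or CGTCA) that begins 61 bases before the start. Those in Kcnj6 are a GC box (GGGCGG or CCGCCC) that begins 69 bases before it. Kcnc2 held no match. RefSeq gave such a stretch for 63 members, to be set beside 27457 promoters in all. The short element was in 19.0% of the members' stretches and in 19.0% of all, and the full element (TGACGTCA, which contains both short forms) in 0% and 1.70%. The AP-1 site (TGACTCA or TGAGTCA) was in 1.59% and 3.98%, the E-box CACGTG in 3.17% and 5.79%, and the GC box in 47.6% and 32.4%. The stretches of the members had a median GC content of 60.8%, against 52% for all promoters. These are matches of letters on both strands and not sites of binding.

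The second comparison asked whether the NMDA receptor blocker was accompanied by other channel levels than glutamate alone. Most members were higher in Memantine than in Glutamate by the fitted mean, and Memantine 3 was the lowest Memantine library for most of them. Of the 65 tested members, 57 were higher and 8 lower, with a median log2 fold change of 1.00, beside -0.02 over all genes. The quasi-likelihood test called 0 members (smallest adjusted p 0.611), as it called 0% of all genes, and DESeq2 also called 0 members. At an unadjusted p below 0.05, 19 members were higher, where 4.88% of all genes were, and 0 were lower (0.201%). These counts are from the fit without a block, although same-numbered libraries of Memantine and Glutamate deviated together. A fit that blocks on the replicate number also called 0 members. Ranges did not overlap for 9 members that were higher, where 1.74% of all genes were, and for 0 that were lower (1.13%). Without Memantine 3, the quasi-likelihood test called 5 members, all higher, namely Kcna6, Kcng1, Kcnj4, Kcnj6 and Kcns2, where it called 1.61% of all genes higher. Memantine 3 was the lowest Memantine library for 50 of the 65 members (76.9%), and for 28.6% of all genes. Memantine 1 and 2 were both above every Glutamate library for 35 members (53.8%, beside 11.4% of all genes). Memantine 3 was so for 11 members (16.9%, beside 16% of all genes). The 10 neuronal markers were all higher in the group (median log2 fold change 1.32), and their part in the result was not tested.

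All 20 tested voltage-gated pores were higher in Memantine than in Glutamate, 8 of them with an unadjusted p below 0.05 (median log2 fold change 1.06). Kcna6 had 67.7, 35.6 and 6.04 CPM in Memantine, and thus 1 library at the Glutamate level and 2 above the Control range. Against Glutamate it differed by 2.06 on the log2 scale (SE 0.61, edgeR adjusted p = 0.611), and 2.56 without Memantine 3. Kcnc2 was 3.33, 2.67 and 0.862 CPM, above every Glutamate library in all 3 Memantine libraries (2.72, SE 0.77, edgeR adjusted p = 0.611). Kcnc4 and Kcnh2 also had ranges without overlap. The silent subunit gene Kcng1 had 34.7, 25.2 and 2.87 CPM, with a log2 fold change of 2.49 (SE 0.75), and 3.01 without Memantine 3. Kcns2 had 11.3, 10.2 and 1.44 CPM, the last of which lay within the Glutamate range. Of the 6 silent subunits tested, 5 were higher, 3 with an unadjusted p below 0.05.

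Kcnj4 had 28.1, 15.8 and 1.58 CPM in Memantine (log2 fold change 2.62, SE 0.85, edgeR adjusted p = 0.611). Kcnj6 had 33.8, 55.1 and 3.02 CPM (2.59, SE 0.81). In both genes Memantine 3 lay within or below the Glutamate range, while the other libraries lay within or above the Control range. Of the 11 inward rectifiers tested, 8 were higher, 3 with an unadjusted p below 0.05, of which the third was Kcnj11, the pore of the ATP-sensitive channel. Kcnj10 had 16.1, 77.4 and 44.5 CPM, spread as widely as in Glutamate. All 7 calcium- and sodium-activated channels tested were higher, none with such a p. Of the 2-pore-domain channels 7 of 9 were higher, and Kcnk1, Kcnk4 and Kcnk13 had such a p. Of the auxiliary subunits 9 of 11 were higher, and Kcnip1 and Kcnip2 had such a p.

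Against Control, Memantine showed no common direction of the members. Of the 65 tested, 38 were higher and 27 lower, and the median log2 fold change was 0.12, beside 0.10 over all genes. The quasi-likelihood test called 0 members (0% of all genes), and DESeq2 called 0. With an unadjusted p below 0.05, 0 members were higher (0.576% of all genes) and 2 lower (0.542%). These were Kcns3, with 0.859, 1.67 and 0.216 CPM in Memantine and 4.00, 4.27 and 2.37 CPM in Control, and Kcnk2, with 5.58, 6.501 and 3.09 CPM against 11.4, 11.1 and 6.52 CPM. Their log2 fold changes were -1.93 (SE 0.82) and -0.93 (SE 0.40). Each had a higher Control range than Memantine range in all libraries. The median over the members turned to -0.33 without Memantine 2, when 24 were higher and 42 lower, and it was 0.49 without Memantine 3, when 48 were higher and 18 lower. It was -0.12 with the replicate number as a block and -0.06 with the rRNA share as a covariate.

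**Figure D4:**
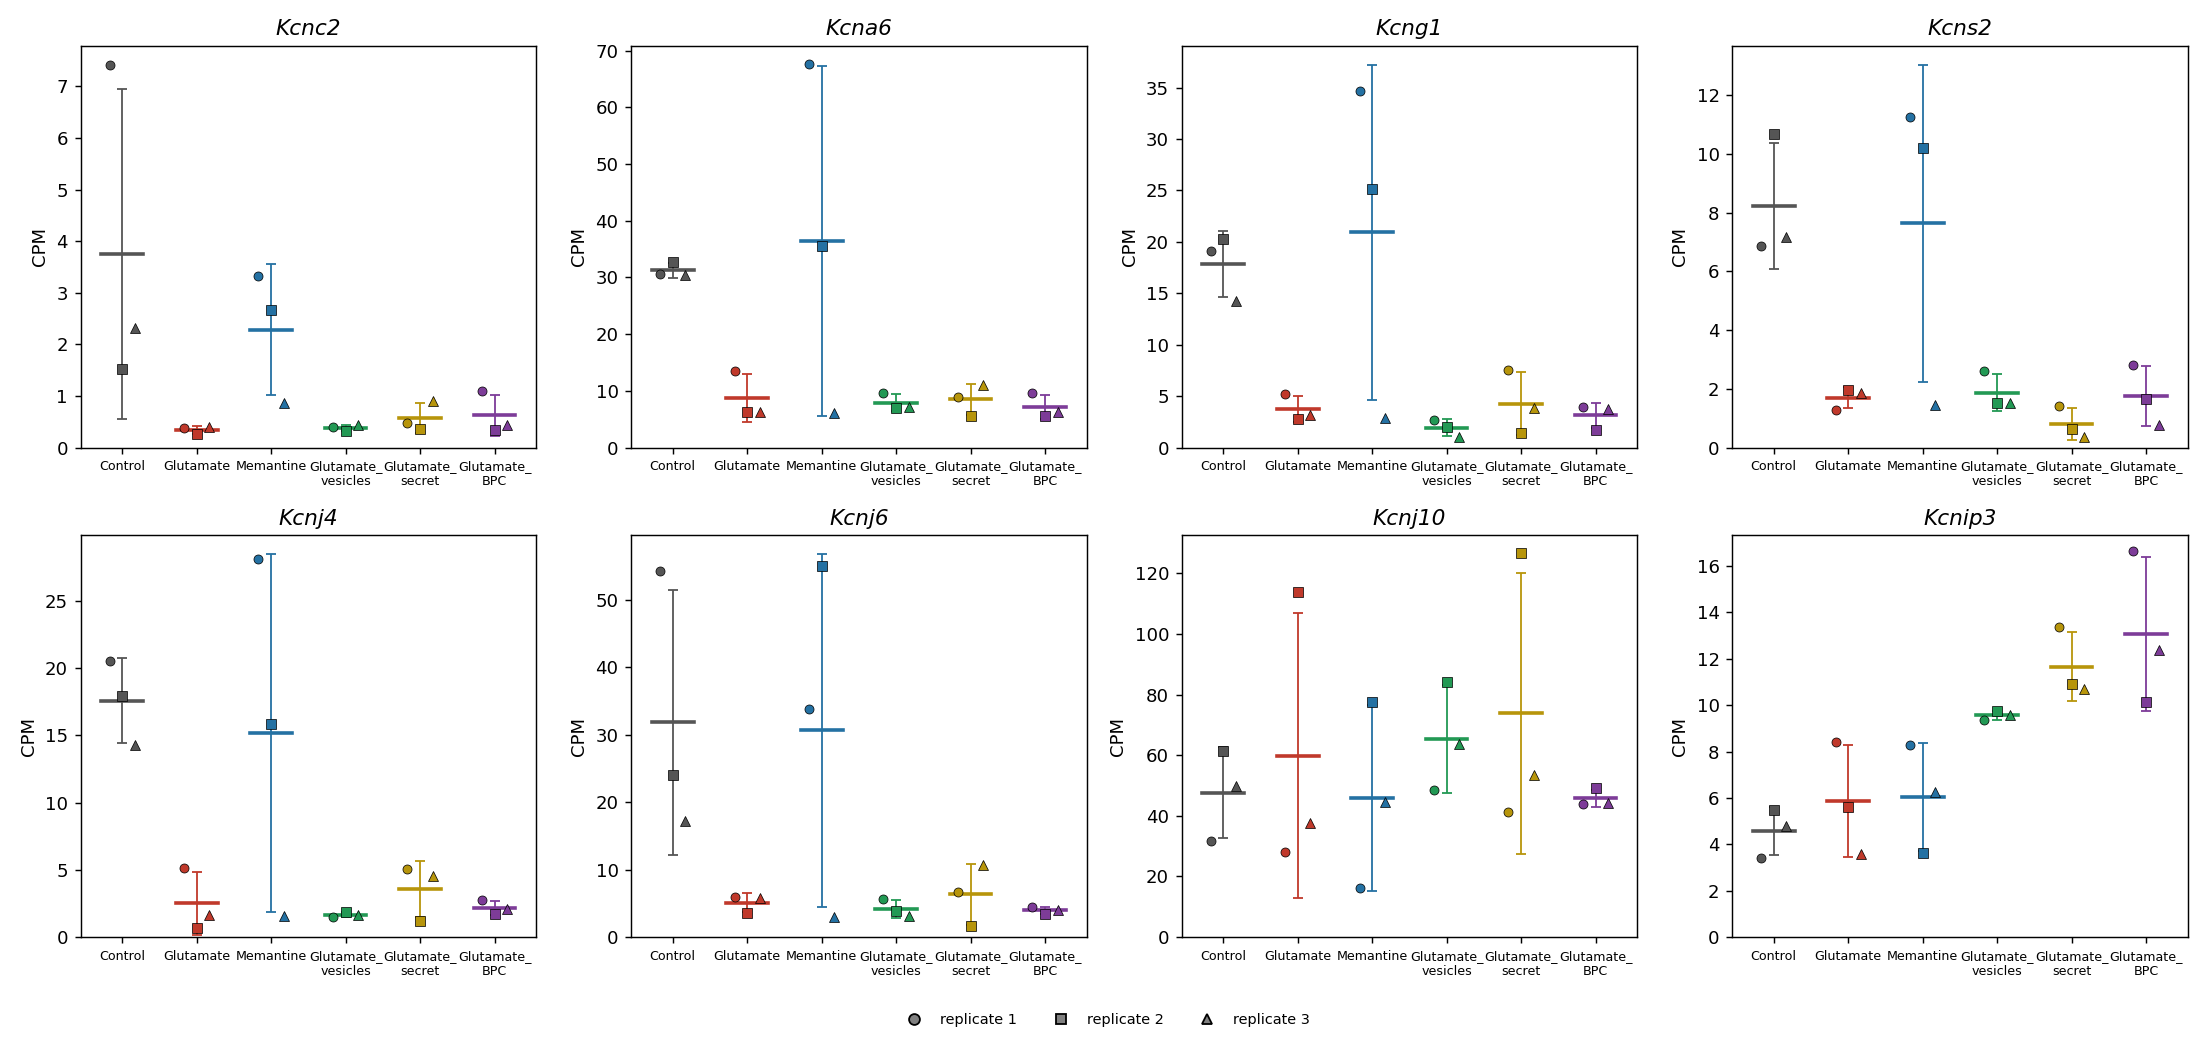
CPM (vertical axes, each with its own scale) of 8 potassium channel genes in the 18 libraries by group. Points are libraries, with circle, square and triangle for replicates 1, 2 and 3, and bars are the mean ± SD of 3. The genes were chosen after their values were seen. Memantine 3 lies at the Glutamate level in Kcna6, Kcng1, Kcns2, Kcnj4 and Kcnj6, while Kcnj10 overlaps between all groups and Kcnip3 is at 9.37 to 16.7 CPM in the preparations.

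Each preparation was then compared with Glutamate alone. In these comparisons the median log2 fold change over the channel genes was between -0.27 and 0.00. The quasi-likelihood test and DESeq2 each called 0 members (0% of all genes by the former in each of the 3). Some subfamily sums departed from Glutamate without overlap, 1 higher and 2 lower in Glutamate_vesicles, 0 and 2 in Glutamate_secret, and 4 and 2 in Glutamate_BPC. The Kcnd sum, 69.9 to 110 CPM in Glutamate, was lower in all 3. It was 50.4 to 64.4 CPM in Glutamate_vesicles, 57.7 to 64.1 CPM in Glutamate_secret and 43.3 to 52.3 CPM in Glutamate_BPC. These sums were not tested, and no share over all genes was worked out for them. The 3 comparisons share the Glutamate libraries, and 0 of the 3 Kcnd members had an unadjusted p below 0.05 in any of them. In Glutamate_vesicles 34 members were higher and 31 lower, with a median log2 fold change of 0.00, beside -0.01 over all genes. With an unadjusted p below 0.05, 0 were higher (0.479% of all genes) and 0 lower (0.597%). In Glutamate_secret 22 members were higher and 43 lower, and the median was -0.19 (all genes -0.01). At such a p, 1 member was higher (0.319% of all genes) and 0 were lower (0.361%). Same-numbered libraries of Glutamate_secret and Glutamate deviated together, and a fit that blocks on the replicate number gave 2 higher and 2 lower. With the rRNA share as a covariate 2 were higher and 8 lower (median -0.38), and without Glutamate_secret 2, 6 were lower. Shares of all genes at such a p are not given for these alternative fits. The counts thus show only that the result depends on the fit. In Glutamate_BPC 25 members were higher and 40 lower, and the median was -0.27 (all genes -0.05). At such a p, 2 members were higher (0.403%) and 1 was lower (0.667%). Without Glutamate 3 or without Glutamate_BPC 1, 0 were higher. Same-numbered libraries of Glutamate_BPC and Glutamate deviated together as well. The counts for Glutamate_BPC, and the p-values of single genes given below, are from the fit without a block. A p that misses the threshold does not show that the levels were alike.

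Kcnip3 was the member with the smallest p in Glutamate_secret and in Glutamate_BPC. It encodes KChIP3, also known as DREAM, a calcium-binding protein that serves as a Kv4 subunit and as a repressor of transcription. Its level was 8.40, 5.59 and 3.60 CPM in Glutamate and 3.43, 5.50 and 4.79 CPM in Control. It was 9.37, 9.75 and 9.57 CPM in Glutamate_vesicles, 13.4, 10.9 and 10.7 CPM in Glutamate_secret, and 16.7, 10.1 and 12.4 CPM in Glutamate_BPC. All 9 libraries with a preparation were above all 6 libraries of Glutamate and Control. Against Glutamate the log2 fold change was 0.71 (SE 0.39, unadjusted p = 0.0905), 0.99 (SE 0.40, unadjusted p = 0.0234) and 1.16 (SE 0.40, unadjusted p = 0.0102), in the order of the groups above. The adjusted p in edgeR was 1 in each of the 3 comparisons. In Memantine the gene had 8.27, 3.61 and 6.25 CPM, within the range of the Glutamate libraries.

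Kcnn4 and Kcnj16 completed the 3 members of smallest p in every preparation. Kcnn4, the intermediate-conductance calcium-activated channel known from immune cells, had at most 0.486 CPM in Control and Glutamate. In Memantine it had 1.07, 0.333 and 1.58 CPM, so that higher levels were not confined to the preparations. Kcnn4 had 2.09, 0.401 and 1.90 CPM in Glutamate_vesicles, 0.315, 0.796 and 3.08 CPM in Glutamate_secret, and 1.36, 0.692 and 2.82 CPM in Glutamate_BPC. Only in Glutamate_BPC was every library above every Glutamate library (log2 fold change 2.24, SE 1.00, unadjusted p = 0.0399). These levels rest on 2 to 39 counts a library. The summed level of the 7 microglial markers was 87.7 to 326 CPM in Glutamate, 54.3 to 150 CPM in Glutamate_vesicles, 79.7 to 659 CPM in Glutamate_secret and 117 to 472 CPM in Glutamate_BPC, and its part in the result was not tested. Kcnj16 encodes Kir5.1, which joins Kir4.1 in glial channels. Its level was 8.65, 5.02 and 9.53 CPM in Glutamate and 3.80, 1.44 and 1.30 CPM in Glutamate_BPC (-1.82, SE 0.84, unadjusted p = 0.0448). It was 20.3, 3.68 and 3.07 CPM in Control, where Control 1 was far above the others.

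Against Control, the 3 preparation groups showed what distance from control cultures the channel genes had. They share the Control libraries with each other and with the Glutamate comparison. In Glutamate_vesicles 54 of 65 members were lower (median log2 fold change -1.12, all genes 0.03), 20 with an unadjusted p below 0.05 (7.61% of all genes lower), and 3 were higher with such a p (3.99%). In Glutamate_secret 55 were lower (median -1.22, all genes 0.06), 26 with such a p (7.61%), and 2 were higher with such a p (4.14%). In Glutamate_BPC 55 were lower (median -1.33, all genes -0.06), 30 with such a p (7.42%), and 3 were higher with such a p (3.92%). The quasi-likelihood test called 0 members in each, where it called 0.0139%, 0% and 0% of all genes, while DESeq2 called 11, 13 and 7 members and 3.07%, 2.84% and 1.58% of all genes. In Glutamate_BPC the 30 lower members became 18 without Control 2, 19 without Glutamate_BPC 2 and 16 without Glutamate_BPC 3. Shares of all genes in those fits are not given. A change common to all genes can thus not be told from one of the members. Same-numbered libraries of Glutamate_vesicles and Control deviated together. With the number as a block, 11 members were called there, all lower, where 2.77% of all genes were called lower. They were Kcna6, Kcnc2, Kcng1, Kcnh3, Kcnj4, Kcnj6, Kcnk1, Kcnk13, Kcnk2, Kcnq3 and Kcns2. The same block gave 17 members in Glutamate_secret (4.86% of all genes) and 5 in Glutamate_BPC (1.74%), where same-numbered libraries did not all deviate together. All 10 neuronal markers were lower than in Control in each preparation, with medians of -1.74, -1.55 and -1.58. Of the 9 oligodendrocyte lineage markers, 8, 8 and 7 were higher, with medians of 1.12, 0.60 and 0.56 and an unadjusted p below 0.05 for 4, 2 and 1. The part of both lists in the result was not tested.

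All 20 tested voltage-gated pores and all 6 silent subunits were lower than in Control in each of the preparations. In Glutamate_vesicles the smallest p-values belonged to Kcnc2 (log2 fold change -3.21, SE 0.76), Kcng1 (-3.21, SE 0.77) and Kcnk13 (-2.74, SE 0.70). Kcng1 had 2.69, 2.05 and 1.07 CPM there, and the lowest of its Control libraries had 14.2 CPM. In Glutamate_secret they belonged to Kcns2 (-3.37, SE 0.75), Kcnip1 (-1.75, SE 0.45) and Kcnn2 (-1.61, SE 0.43). Kcns2 had 1.42, 0.619 and 0.362 CPM there, against 6.85 CPM in the lowest Control library. In Glutamate_BPC they belonged to Kcnip3 (1.496, SE 0.40), Kcnj6 (-3.00, SE 0.82) and Kcnj4 (-3.02, SE 0.86). Kcnj6 had 4.44, 3.40 and 4.01 CPM there and Kcnj4 2.72, 1.73 and 2.06 CPM, all below the Control ranges. Kcnip3 was higher than in Control in each of the 3, with log2 fold changes of 1.05 (SE 0.40), 1.33 (SE 0.40) and 1.496 (SE 0.40). By DESeq2 it was called in Glutamate_secret and in Glutamate_BPC.

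**Figure D5:**
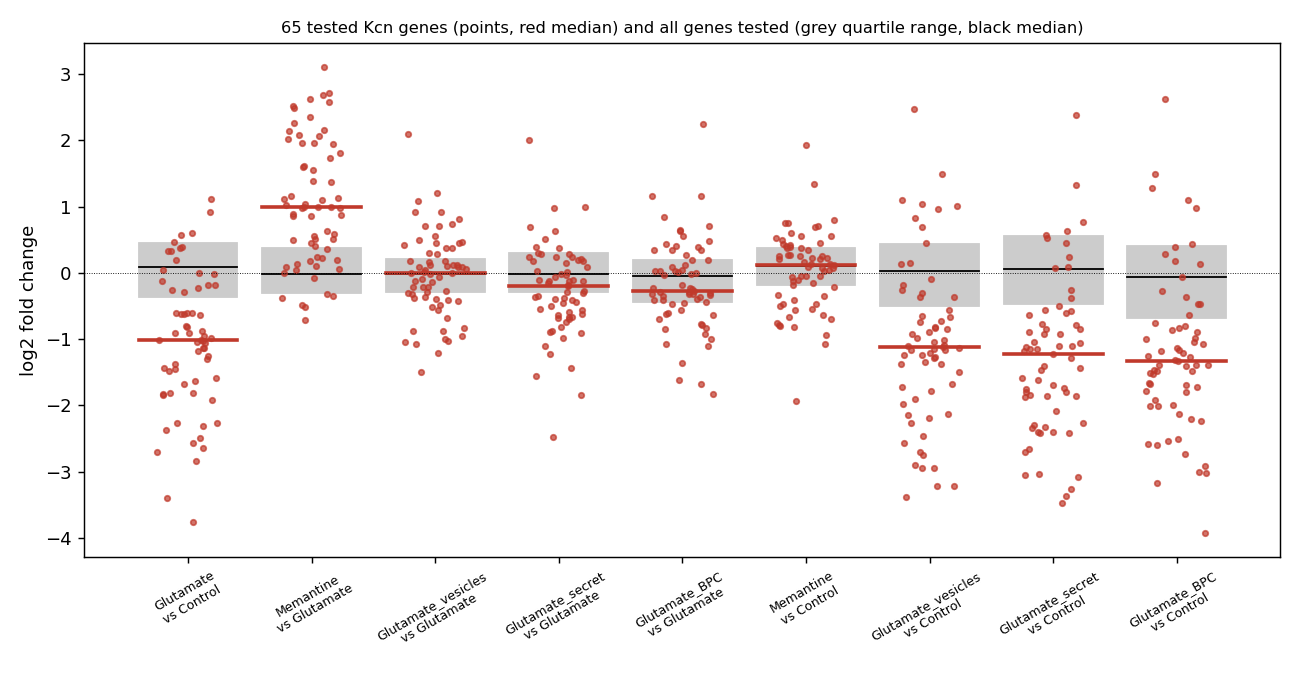
Log2 fold change (vertical axis) of the 65 tested Kcn genes (red points, red line at their median) in each of 9 comparisons (horizontal axis). Grey boxes span the quartiles of all genes tested, with a black line at their median, and comparisons with a group in common share its libraries. The medians of the Kcn genes are -1.02 for Glutamate against Control and 1.00 for Memantine against Glutamate, and lie between -0.27 and 0.00 for the preparations against Glutamate.

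Over the 6 groups together, the F test of edgeR called 0 members (smallest adjusted p 0.134), where it called 0.00695% of all genes. DESeq2 called 19 members and 4.58% of all genes. An unadjusted p below 0.05 was found for 27 of 65 members (41.5%), beside 7.75% of all genes. Kcnc2, Kcng1 and Kcns2 had the smallest unadjusted p-values, 0.000598, 0.000601 and 0.000692.

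Genes that partner potassium channels or move potassium by other means were followed in a fixed list of 25, of which 21 were tested. Against Control, 4 were lower in Glutamate with an unadjusted p below 0.05 (5.97% of all genes) and 1 was higher (2.13%). Their median log2 fold change was -0.24, beside 0.08 over all genes. Slc12a5, the neuronal potassium-chloride cotransporter KCC2, was at 29.4 ± 20.1 CPM in Control and 4.46 ± 1.09 CPM in Glutamate (mean ± SD of 3 libraries), with a log2 fold change of -2.73 (SE 0.83). Atp1b1 (-1.48, SE 0.38) and Amigo1 (-1.16, SE 0.43) were among the others. Slc12a4, the widely expressed cotransporter KCC1, was the higher one (0.95, SE 0.37). In Memantine 6 partners were higher than in Glutamate with an unadjusted p below 0.05 (4.88% of all genes), among them Amigo1, Atp1b1, Cntnap2, Lgi1 and Slc12a5. Against Glutamate, 0 of the 21 had such a p in any preparation (1.08%, 0.681% and 1.07% of all genes). Against Control, 6 were lower with such a p in Glutamate_vesicles (7.61%), 6 in Glutamate_secret (7.61%) and 4 in Glutamate_BPC (7.42%). In the same order 2, 0 and 1 were higher (3.99%, 4.14% and 3.92%).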

How the data were processed

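RNA sequencing of 18 libraries was analysed. The deposited values are expected counts, that is, estimated read counts per gene. According to the paper's methods, the authors used Trimmomatic and Cutadapt for trimming, Salmon with a genome decoy for quantification on Ensembl rat transcripts (rn6), and tximport to sum transcripts by gene. The submitters' processing notes also name STAR. The versions of Trimmomatic, Cutadapt, Salmon and STAR are not given in the sources used here. Labels and methods disagree on kit and instrument, and strand in counting is not stated. RNA was measured per group as the labels give it, with libraries of 8409574 to 17206354 counts.

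Expected counts were rounded, although the design was written for counts. Genes were filtered with filterByExpr (minimum count 10, total 15) and tested with the quasi-likelihood F test of edgeR 4.0.16 in R 4.3.3 (two-sided, TMM scaling, 1 mean per group over all 18 libraries, Benjamini-Hochberg adjustment over 14398 genes). Alternatives were the likelihood-ratio test that the study used, DESeq2 1.42.0, relative log expression factors, no filter, the replicate number as a block, the log2 rRNA share as a covariate, and leaving out each library. The fit was tested on simulated data.

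Members and lists were chosen with earlier results of these data known. Named genes are members called, the 3 smallest p-values per comparison and the member with most counts per subfamily, and others were named after their values were seen. Replicate numbers pair samples where every same-numbered correlation of deviations from the group means exceeds 0.1. This held for Glutamate_vesicles with Control (lowest 0.208) and for Memantine (0.573), Glutamate_secret (0.445) and Glutamate_BPC (0.454) with Glutamate, as a hint from the data, since the labels give only the number. For clustering plots the authors removed a day effect, and no source used here says which libraries share a day. Promoters are from RefSeq (GRCr8). This is another build than rn6, and only the 250 upstream bases were used. Symbols of all 92 members matched RefSeq, and 16 overlap another gene there. A planned search of protein sequences was not run, since no protein table was used here. Some genes are not reported here by name, and counts and medians include them.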

Additional observations from a re-analysis of the deposited data

How the results depend on the processing

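The main test called 0 members in each of the 9 comparisons and over the 6 groups, and relative log expression factors and no filter gave 0 in all 10 as well. Shares of all genes called by the same fit stand in parentheses. For Glutamate against Control the likelihood-ratio test called 1 member (0.313%), DESeq2 7 (1.44%) and the replicate block 3 (1.15%). Against Control, Glutamate_vesicles had 5 by the likelihood-ratio test (1.11%), 11 by DESeq2 (3.07%) and 11 with the replicate block (3.74%). Glutamate_secret had 5 (1.55%), 13 (2.84%) and 17 (4.86%), and 11 with the rRNA share as a covariate (4.04%). Glutamate_BPC had 7 by DESeq2 (1.58%) and 5 with the block (1.74%). Over the 6 groups the counts were 16 (4.08%), 19 (4.58%) and 13 (3.45%), and 8 with the rRNA share (2.67%). Leaving out 1 library gave 0 to 5 members for Memantine against Glutamate and 0 to 16 over the 6 groups, where both upper values are without Memantine 3 (1.73% and 3.41%). Without that library, whose spread enters every comparison, Glutamate_vesicles and Glutamate_secret had 4 (0.846%) and 3 (1.54%) against Control. Leaving out any other library gave 0. Among the paired comparisons, the block changed a call only for Glutamate_vesicles against Control. In the others, same-numbered libraries did not all deviate together, and whether the number marks a day of culture is not given. Why the counts differ was not tested.

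The median log2 fold change over the members ranged from -1.19 to -0.84 for Glutamate against Control and from 0.50 (without Memantine 2) to 1.31 (without Memantine 3) for Memantine against Glutamate, over all alternatives. Without Control 1 the former was -1.02. For the latter, 12 members were higher at an unadjusted p below 0.05 without Memantine 1, Memantine 2 or Glutamate 3, and 31 without Memantine 3. Shares of all genes at such a p are not given for the alternative fits in this paragraph. Without Memantine 3 more of all genes were called in that comparison as well, 1.73% beside 0% in the main fit. For Memantine against Control the median of 0.12 turned to -0.33 without Memantine 2, -0.12 with the block and -0.06 with the rRNA share. The median went to -0.16 for Glutamate_vesicles against Glutamate with the rRNA share or without Glutamate_vesicles 2, to -0.06 for Glutamate_BPC against Glutamate without Glutamate 2, and to -1.64 for Glutamate_secret against Control without Glutamate_secret 2. Few members were higher than Control in the preparations at an unadjusted p below 0.05, and without Control 2 these were 1 each. Depth limits Kcnc2, with 3 to 4 counts in each Glutamate library, Kcnv1, with 3 to 8 there, and Kcnn4, with 0 to 9 in Control.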
